A study of Mus musculus with 12 samples.

Results

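Endothelial and pericyte genes were followed in brain and spleen of mice with and without Norad, a long noncoding RNA that binds PUMILIO proteins. The 10 genes were chosen by symbol, for what they are known to mark, and are 10 of the 24062 genes in the expression tables. Of these, 5 are general endothelial genes (Pecam1, Cdh5, Kdr, Flt1 and Tek), 3 are genes of the blood-brain barrier (Cldn5, Slco1a4 and Abcb1a), and 2 are pericyte genes (Pdgfrb and Vtn). RNA came from Norad-/- brain, Norad+/+ brain, Norad-/- spleen and Norad+/+ spleen, with 3 libraries in each group, all from male mice aged 10 weeks, labelled C57BL/6, with no treatment named. The Norad-/- allele is a whole-gene deletion made with Cas9 and a pair of guide RNAs in C57BL/6J oocytes and kept on C57BL/6J, and the founder line behind each library is not given in the sources used here. Each genotype was represented by 3 mice in the study's methods. The labels do not say whether a mouse gave both tissues, and the libraries were treated as separate samples.

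Endothelial cells line every blood vessel and share a core of junction proteins and growth factor receptors. In the brain they also seal their junctions and carry transporters and efflux pumps that select what enters from the blood, a barrier kept up with the help of pericytes, the contractile cells wrapped around capillaries. The spleen has vessels of the opposite kind, open sinuses through which blood cells pass in and out of the tissue. The values are FPKM, read coverage per length of transcript and per depth of library, so that the genes of a library can be set side by side. The FPKM of a library summed to between 275738 and 360333, so levels in different libraries are on close but not equal scales. In RNA from whole tissue, fewer cells of a type and less RNA per cell cannot be told apart.

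Norad itself was at or below 0.0173 FPKM in all 6 Norad-/- libraries, against 206, 259 and 635 FPKM in Norad+/+ brain and 62.0, 42.9 and 56.3 FPKM in Norad+/+ spleen. Depth, estimated from the smallest steps between values, was 28.3 to 36.6 M reads per library. Norad+/+ brain replicate 3 and Norad+/+ spleen replicate 3 stood apart, with a median Spearman correlation to the other libraries of their tissue of 0.949 and 0.948, where the others had at least 0.961. Norad+/+ spleen replicate 3 also held genes of liver, pancreas and neurons, and Norad-/- brain replicate 3 held genes of the pituitary, and these values are given below where they touch a vessel gene.

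PUMILIO proteins bind the PUMILIO response element (PRE), the letters TGTANATA in an RNA, usually in its 3′ UTR, the noncoding stretch after the stop codon. The longest annotated 3′ UTR held a PRE in 3 of the 10 genes, against 23.1% of 21124 coding genes, and these sites are shown because Norad acts through PUMILIO. Tek and Abcb1a each had 2, and Flt1 had 1. Each site is printed as DNA, 5′ to 3′ along the transcript, with the PRE in capitals between its neighbouring bases (GRCm38, GENCODE M21).
Flt1, minus strand, PRE at chr5:147638625-147638632: tgctcttgattTGTAAATAgttcctggata
Tek, plus strand, PRE at chr4:94874104-94874111: tgatatataagTGTATATAttgtgctgtgt
Tek, plus strand, PRE at chr4:94874182-94874189: tctaatgtgacTGTATATActgctcggagt
Abcb1a, plus strand, PRE at chr5:8748002-8748009: aactggaatatTGTACATAattttagcctt
Abcb1a, plus strand, PRE at chr5:8748529-8748536: atatccataatTGTAAATAagaggatctta
The site of Flt1 lies only in a shorter transcript that ends inside the gene, and the full-length transcript had 0 PREs in its 3′ UTR of 2616 bases. Both sites of Tek were in all 3 of its transcripts with an annotated 3′ UTR. The FPKM tables hold 1 value per gene and do not separate these transcripts. The other 7 genes, Pecam1, Cdh5, Kdr, Cldn5, Slco1a4, Pdgfrb and Vtn, had 0 PREs. These sites are matches of letters, and binding was not measured here.

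The vessel genes had a different order of levels in the 2 tissues. In Norad-/- brain the highest were Vtn at 37.0 ± 1.97 FPKM (SD, n = 3) and Cldn5 at 28.7 ± 4.10 FPKM (SD, n = 3), followed by Slco1a4, Flt1, Pecam1, Abcb1a, Cdh5, Pdgfrb, Tek and Kdr, the lowest at 2.63 ± 0.33 FPKM (SD, n = 3). Among neighbours in this order Pecam1 and Abcb1a overlapped, and all other neighbours were separate. Norad+/+ brain had the same order but for Cldn5, which came first at 38.7 ± 7.68 FPKM (SD, n = 3), above Vtn at 29.1 ± 6.38 FPKM (SD, n = 3), and there Cldn5 and Vtn, Slco1a4 and Flt1, Pecam1 and Abcb1a, Abcb1a and Cdh5, and Pdgfrb and Tek overlapped. In Norad-/- spleen Pecam1 led at 53.9 ± 1.47 FPKM (SD, n = 3), followed by Cldn5 at 37.9 ± 4.85 FPKM (SD, n = 3), Cdh5, Pdgfrb, Kdr, Abcb1a, Flt1 and Tek, with Vtn and Slco1a4 close to 0. The order in Norad+/+ spleen differed at Flt1 and Abcb1a, which changed places and overlapped, as did Abcb1a and Tek. There Vtn ran from 0.0174 to 4.06 FPKM and overlapped both of its neighbours, Tek and Slco1a4.

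**Figure D1:**
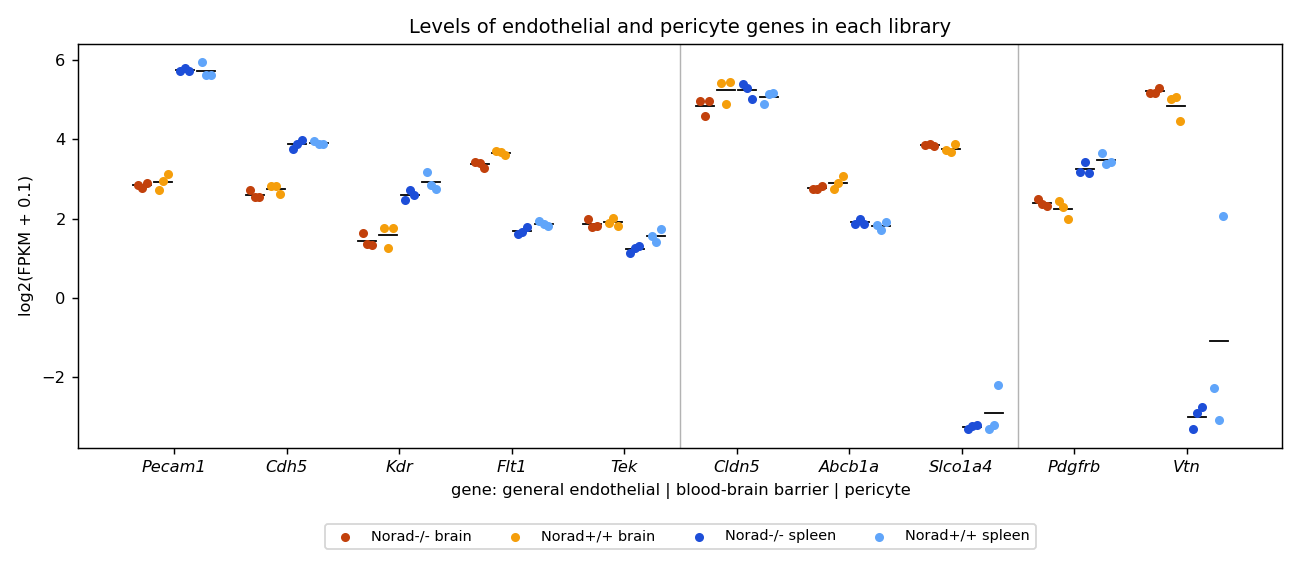
Level of each gene in each library, as log2(FPKM + 0.1) on the vertical axis, with general endothelial, blood-brain barrier and pericyte genes from left to right. Each point is 1 library of Norad-/- brain, Norad+/+ brain, Norad-/- spleen or Norad+/+ spleen (n = 3 each) and short lines mark group means; Slco1a4 lies near the floor of the scale in all spleen libraries, Vtn in all but Norad+/+ spleen replicate 3, and Cldn5 stands at a like height in all 4 groups.

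To ask which vessel genes separated the tissues, brain was compared with spleen within each genotype by limma on log2(FPKM + 0.1), with p adjusted over all 14967 genes tested. The brain and spleen values come from separate tables, in which each library was scaled on its own. In Norad-/- mice 5 of the 10 genes were higher in brain and 5 lower past an adjusted p of 0.05, where 39.3% of all genes tested were called higher and 43.8% lower. In Norad+/+ mice 5 were higher and 4 lower, where 37.9% of all genes were called higher and 45.4% lower, and Cldn5 was the gene not called. Slco1a4 and Vtn entered the fits through their brain level alone, so the filter had already set their direction, and the other 8 genes averaged at least 1 FPKM in both tissues. The groups did not overlap at the same genes, 5 higher and 5 lower in Norad-/- mice (41.4% and 46.5% of all genes) and 5 higher and 4 lower in Norad+/+ mice (37.9% and 45% of all genes). Most genes differ between these organs, and the directions and sizes follow gene by gene. The median log2 fold change of all genes was -0.15 in Norad-/- and -0.21 in Norad+/+ mice, and -0.04 and -0.02 after every library was rescaled to TPM.

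Pecam1 and Cdh5, the adhesion molecules of endothelial junctions, were lower in brain. Pecam1 (ENSMUSG00000020717, chr11:106654217-106750628 in GRCm38) had 7.15, 6.72 and 7.32 FPKM in Norad-/- brain, against 53.0, 55.6 and 53.1 FPKM in Norad-/- spleen. Norad+/+ libraries had 6.52, 7.56 and 8.69 FPKM in brain, against 61.3, 49.5 and 49.3 FPKM in spleen. No brain library came near a spleen library, and the log2 fold change of brain over spleen was -2.91 in Norad-/- mice (standard error 0.12, adjusted p = 1.01e-09 with limma) and -2.80 in Norad+/+ mice (adjusted p = 1.46e-09). Pecam1 is also known on leukocytes and platelets. The summed level of 5 genes of platelets and megakaryocytes was 1.54 to 2.37 FPKM in Norad-/- brain, against 63.4 to 202 FPKM in Norad-/- spleen, and 1.29 to 1.47 FPKM in Norad+/+ brain, against 152 to 294 FPKM in Norad+/+ spleen. None of the 5 was at 0 in any library. Ptprc, the CD45 antigen of leukocytes, had 0.513 to 0.974 FPKM in Norad-/- brain, against 267 to 295 FPKM in Norad-/- spleen, and 0.601 to 1.2 FPKM in Norad+/+ brain, against 222 to 287 FPKM in Norad+/+ spleen. The part of these cells in the Pecam1 difference was not tested.

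Cdh5 (ENSMUSG00000031871, chr8:104101625-104144511) encodes VE-cadherin, which is largely restricted to endothelium. It had 6.44, 5.76 and 5.72 FPKM in Norad-/- brain, against 13.4, 14.6 and 15.7 FPKM in Norad-/- spleen. In the Norad+/+ genotype it had 6.94, 7.01 and 6.01 FPKM in brain, against 15.4, 14.7 and 14.7 FPKM in spleen. Every brain library lay below every spleen library, with a log2 fold change of -1.27 in Norad-/- mice (standard error 0.10, adjusted p = 2.06e-07 with limma) and -1.16 in Norad+/+ mice (adjusted p = 4.59e-07). An antisense gene, Gm29682, overlaps Cdh5, and whether strand was used in making the FPKM values is not given in the sources used here, although the libraries were stranded.

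The VEGF receptors Kdr and Flt1 went opposite ways. Kdr (ENSMUSG00000062960, chr5:75932827-75978458), the main signalling receptor for VEGF-A, had 3.01, 2.47 and 2.40 FPKM in Norad-/- brain, against 5.39, 6.53 and 5.98 FPKM in Norad-/- spleen. Levels in Norad+/+ mice were 3.28, 2.28 and 3.29 FPKM in brain, against 8.99, 7.03 and 6.66 FPKM in spleen. It was lower in brain in both genotypes, by a log2 fold change of -1.16 in Norad-/- mice (standard error 0.17, adjusted p = 6.95e-05 with limma) and -1.33 in Norad+/+ mice (adjusted p = 2.08e-05).

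Flt1 (ENSMUSG00000029648, chr5:147561604-147726011), which binds VEGF tightly, signals weakly and also exists as a soluble decoy, had 10.7, 10.5 and 9.64 FPKM in Norad-/- brain, against 2.98, 3.08 and 3.36 FPKM in Norad-/- spleen. The Norad+/+ values were 13.0, 12.7 and 12.1 FPKM in brain, against 3.74, 3.54 and 3.39 FPKM in spleen. All brain libraries stood above all spleen libraries, with a log2 fold change of 1.68 in Norad-/- mice (standard error 0.09, adjusted p = 8.2e-09 with limma) and 1.80 in Norad+/+ mice (adjusted p = 4.77e-09). On the FPKM scale Flt1 thus exceeded Kdr in every brain library, and Kdr exceeded Flt1 in every spleen library.

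The promoters of these receptors are shown because the genes diverge between tissues while lying on the same chromosome and serving the same ligand family. Each is 300 bases, 5′ to 3′ along the gene, 250 before and 50 after the start of transcription (RefSeq, GRCm38.p6). Capitals mark AGGAAG, a core for ETS factors that many endothelial genes carry, or GGGCGG, the GC box of SP1, on either strand.
Kdr, minus strand, chr5:75978406-75978705: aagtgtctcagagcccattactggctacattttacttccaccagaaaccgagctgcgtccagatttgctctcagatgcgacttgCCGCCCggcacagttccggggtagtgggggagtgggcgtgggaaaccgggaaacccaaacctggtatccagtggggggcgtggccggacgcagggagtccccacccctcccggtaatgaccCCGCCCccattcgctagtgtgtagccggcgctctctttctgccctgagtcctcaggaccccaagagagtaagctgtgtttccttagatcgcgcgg
Flt1, minus strand, chr5:147725962-147726261: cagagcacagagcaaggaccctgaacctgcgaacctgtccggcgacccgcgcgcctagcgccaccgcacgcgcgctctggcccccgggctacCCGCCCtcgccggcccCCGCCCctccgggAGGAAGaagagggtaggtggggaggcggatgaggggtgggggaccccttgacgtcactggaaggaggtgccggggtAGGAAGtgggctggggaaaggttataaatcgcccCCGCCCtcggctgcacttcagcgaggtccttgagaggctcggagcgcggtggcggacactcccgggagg
Kdr had 2 GC boxes and 0 ETS cores in this window, and Flt1 had 3 GC boxes and 2 ETS cores. Of 32851 RefSeq promoters of the same length, 35.7% held a GC box and 35.4% an ETS core. Neither window held AGATAA, a motif of the factors named for GATA, which 11.2% of promoters held. The motif ACAAAG of SOX factors (18.7% of promoters) and the motif ATCAAAG of TCF/LEF factors (3.73%) were also in neither window, on either strand. None of the marked motifs overlaps another, and a match describes letters and not binding.

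Tek, the receptor of the angiopoietins (ENSMUSG00000006386, chr4:94739289-94874976), differed less between tissues. It had 3.90, 3.37 and 3.42 FPKM in Norad-/- brain, against 2.08, 2.31 and 2.39 FPKM in Norad-/- spleen. Norad+/+ libraries had 3.58, 3.93 and 3.41 FPKM in brain, against 2.83, 2.56 and 3.25 FPKM in spleen. It was higher in brain in both genotypes, with a log2 fold change of 0.63 in Norad-/- mice (standard error 0.12, adjusted p = 0.00047 with limma) and 0.33 in Norad+/+ mice (standard error 0.12, adjusted p = 0.0245). The call in Norad+/+ mice ended without Norad+/+ brain replicate 2 (0.27, adjusted p = 0.0886), without Norad+/+ spleen replicate 1 (0.32, adjusted p = 0.0523) or without Norad+/+ spleen replicate 2 (0.25, adjusted p = 0.098).

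**Figure D2:**
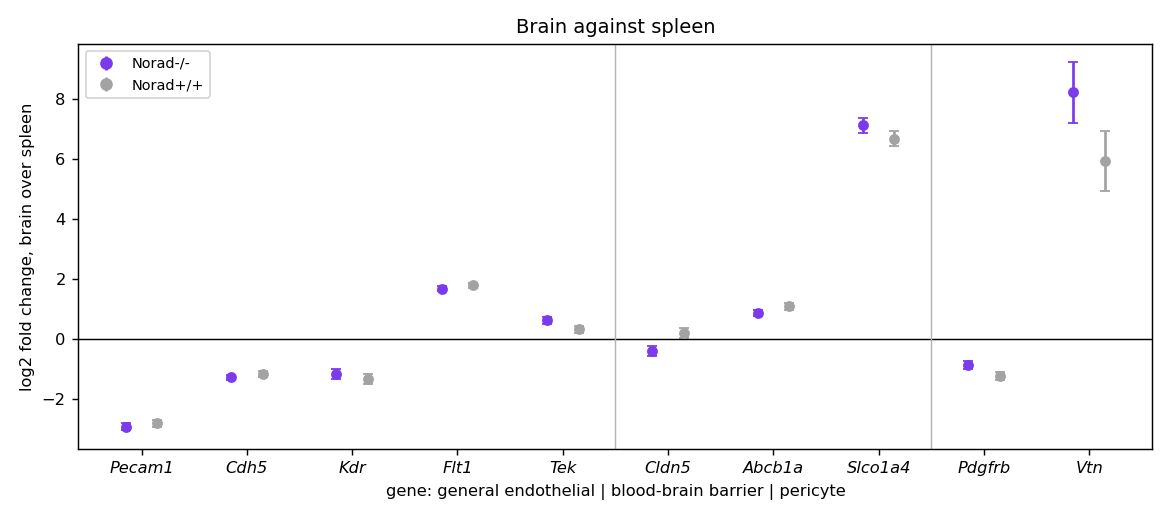
Log2 fold change of brain over spleen on the vertical axis for each gene, in Norad-/- and in Norad+/+ mice (points, with the standard error from limma as bars; 3 libraries per group). Slco1a4 and Vtn lie far above 0 and Pecam1 far below, and Cldn5 lies at -0.40 in Norad-/- and 0.20 in Norad+/+ mice.

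The barrier genes were of 3 kinds. Slco1a4 (ENSMUSG00000030237, chr6:141805440-141856199), a transporter of organic anions across brain endothelium, was found almost only in brain. It had 14.4, 14.7 and 14.1 FPKM in Norad-/- brain and 13.2, 12.7 and 14.5 FPKM in Norad+/+ brain. In Norad-/- spleen it was listed at 0, 0.00663 and 0.00742 FPKM, and in Norad+/+ spleen at 0, 0.00804 and 0.116 FPKM. The log2 fold change was 7.11 in Norad-/- mice (standard error 0.24, adjusted p = 2.72e-10 with limma) and 6.67 in Norad+/+ mice (adjusted p = 4.65e-10), a size that the pseudocount of 0.1 FPKM sets. The highest spleen value, in Norad+/+ spleen replicate 3, stood beside liver, pancreas and neuron genes in the same library, and their part in it was not tested.

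Abcb1a (ENSMUSG00000040584, chr5:8660077-8748575), a P-glycoprotein that pumps drugs back into the blood, was higher in brain but present in both organs. It had 6.65, 6.62 and 6.98 FPKM in Norad-/- brain, against 3.51, 3.86 and 3.56 FPKM in Norad-/- spleen. In the Norad+/+ genotype it had 6.65, 7.31 and 8.37 FPKM in brain, against 3.46, 3.16 and 3.69 FPKM in spleen. The tissues did not overlap, with a log2 fold change of 0.87 in Norad-/- mice (standard error 0.11, adjusted p = 1.4e-05 with limma) and 1.09 in Norad+/+ mice (adjusted p = 1.99e-06). Its near copy Abcb1b, another P-glycoprotein gene of the mouse, ran the other way, at 0.73 ± 0.10 FPKM in Norad-/- brain, against 3.17 ± 0.41 FPKM in Norad-/- spleen, and 0.70 ± 0.19 FPKM in Norad+/+ brain, against 2.83 ± 0.60 FPKM in Norad+/+ spleen (SD, n = 3 each). Abcb1b was lower in brain, at -1.98 in Norad-/- and -1.89 in Norad+/+ mice on the log2 scale (adjusted p = 3.39e-06 and adjusted p = 5.08e-06 with limma). Only uniquely mapped reads were kept, so both values are uncertain where the copies match, and 2 predicted gene models (Gm42684 and Gm42686) overlap Abcb1a.

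Cldn5, the main claudin of the barrier's tight junctions (ENSMUSG00000041378, chr16:18776847-18778262), had levels in spleen close to those in brain. It had 31.0, 24.0 and 31.2 FPKM in Norad-/- brain, against 41.9, 39.3 and 32.5 FPKM in Norad-/- spleen. Levels in Norad+/+ mice were 43.0, 29.8 and 43.2 FPKM in brain, against 29.4, 35 and 35.5 FPKM in spleen. Brain was lower in Norad-/- mice, narrowly and without overlap (log2 fold change -0.40, standard error 0.17, adjusted p = 0.0483 with limma), while in Norad+/+ mice the tissues overlapped (0.20, standard error 0.17, adjusted p = 0.296). The call in Norad-/- mice ended in 7 of the 12 fits that left out 1 library. Leaving out Norad-/- brain replicate 1 gave an adjusted p of 0.0533, Norad-/- brain replicate 2 gave 0.183, Norad-/- spleen replicate 1 gave 0.15 and Norad-/- spleen replicate 2 gave 0.115. Leaving out Norad+/+ spleen replicate 1, 2 or 3 changed only the shared spread and gave an adjusted p of 0.0507, 0.0609 and 0.0567. It also ended after rescaling to TPM (-0.30, adjusted p = 0.116), and in Norad+/+ mice a call was gained on that scale (0.39, adjusted p = 0.0428) and without Norad+/+ brain replicate 2 (0.38, adjusted p = 0.0449).

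The promoters of Cldn5 and Slco1a4 are shown in the same way, because these barrier genes had the smallest and the largest separation of the tissues among the 3.
Cldn5, plus strand, chr16:18776597-18776896: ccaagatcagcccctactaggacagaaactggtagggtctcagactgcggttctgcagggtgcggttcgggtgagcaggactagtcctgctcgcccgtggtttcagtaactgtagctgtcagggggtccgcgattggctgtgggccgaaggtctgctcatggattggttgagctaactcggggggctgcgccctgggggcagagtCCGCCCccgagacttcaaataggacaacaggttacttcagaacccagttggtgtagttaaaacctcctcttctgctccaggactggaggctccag
Slco1a4, minus strand, chr6:141856171-141856470: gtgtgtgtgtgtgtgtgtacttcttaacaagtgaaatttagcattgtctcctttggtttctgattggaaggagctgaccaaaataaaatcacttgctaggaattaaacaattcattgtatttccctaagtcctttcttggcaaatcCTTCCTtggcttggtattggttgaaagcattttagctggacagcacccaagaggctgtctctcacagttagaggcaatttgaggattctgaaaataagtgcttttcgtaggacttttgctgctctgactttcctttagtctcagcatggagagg
Cldn5 had 1 GC box and 0 ETS cores, and Slco1a4 had 0 GC boxes and 1 ETS core. The GATA, SOX and TCF/LEF motifs named above were in neither window. RefSeq promoters were at hand for 7 of the 10 genes.

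The pericyte genes also parted. Pdgfrb (ENSMUSG00000024620, chr18:61045150-61085061), the receptor through which endothelial PDGF-B recruits pericytes, and one that fibroblast-like cells of the spleen also carry, was lower in brain. It had 5.53, 5.08 and 4.91 FPKM in Norad-/- brain, against 9.0, 10.6 and 8.74 FPKM in Norad-/- spleen. The Norad+/+ values were 5.38, 4.82 and 3.89 FPKM in brain, against 12.5, 10.3 and 10.7 FPKM in spleen. The tissues did not overlap, with a log2 fold change of -0.85 in Norad-/- mice (standard error 0.13, adjusted p = 0.000117 with limma) and -1.24 in Norad+/+ mice (adjusted p = 5.12e-06).

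Vtn (ENSMUSG00000017344, chr11:78499091-78502324) encodes vitronectin, a plasma protein made in bulk by the liver and, in the brain, by pericytes. It had 36.0, 35.8 and 39.3 FPKM in Norad-/- brain and 32.4, 33.2 and 21.7 FPKM in Norad+/+ brain. In spleen it was listed at 0, 0.0325 and 0.0485 FPKM in Norad-/- libraries, and at 0.108, 0.0174 and 4.06 FPKM in Norad+/+ libraries. It was higher in brain by a log2 fold change of 8.21 in Norad-/- mice (standard error 1.0, adjusted p = 1.36e-05 with limma) and 5.94 in Norad+/+ mice (standard error 1.0, adjusted p = 0.000188).

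The value of 4.06 FPKM came from Norad+/+ spleen replicate 3, where the summed level of 8 liver genes, Alb and Apoa1 among them, was 129 FPKM with 0 of the 8 at 0. In the other spleen libraries that sum was 0.26 to 0.394 FPKM in the Norad-/- group and 0.470 and 0.612 FPKM in the Norad+/+ group, with 4 to 6 of the 8 at 0. The same library held 281 FPKM of 5 pancreas genes, against at most 9.55 FPKM in any other spleen library, and 15.7 FPKM of 5 neuron genes, against at most 3.93 FPKM. Without this library the log2 fold change of Vtn in Norad+/+ mice was 7.52 (standard error 0.27, adjusted p = 2.2e-09 with limma). The share of the 4.06 FPKM that came with these other tissues was not tested.

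**Figure D3:**
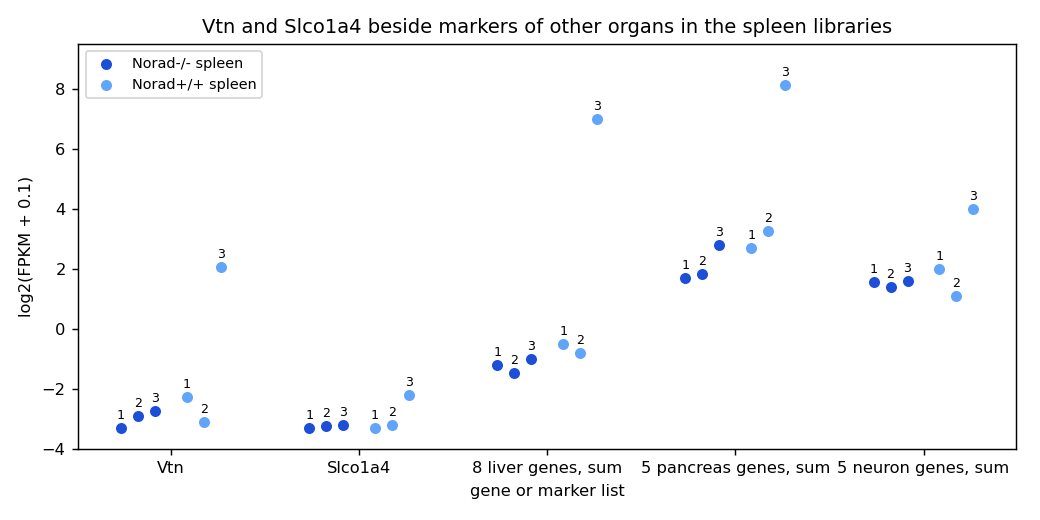
Vtn, Slco1a4 and the summed levels of 8 liver, 5 pancreas and 5 neuron genes in the 6 spleen libraries, as log2(FPKM + 0.1) on the vertical axis, with replicate numbers beside the points. Norad+/+ spleen replicate 3 is the highest library for all 5 quantities.

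To set the barrier genes against the general ones within each library, the mean log2(FPKM + 0.1) of the 5 general endothelial genes was subtracted from that of the 3 barrier genes. A positive value means that the barrier genes stood higher on this scale. The gap was 1.40 ± 0.09 in Norad-/- brain and 1.41 ± 0.13 in Norad+/+ brain, against -1.73 ± 0.12 in Norad-/- spleen and -1.88 ± 0.32 in Norad+/+ spleen (SD, n = 3 each). It ran from 1.28 to 1.54 over all 6 brain libraries and was -1.54 or lower in all 6 spleen libraries. The sign in spleen rested on Slco1a4. Without that gene, a choice made after the values were seen, the gap was 1.38 ± 0.12 in Norad-/- brain and 1.51 ± 0.16 in Norad+/+ brain, against 0.54 ± 0.16 in Norad-/- spleen and 0.24 ± 0.17 in Norad+/+ spleen (SD, n = 3 each), still with no spleen library as high as any brain library. Lists of 20 other barrier genes and 20 other general endothelial genes gave 0.71 ± 0.03 in Norad-/- brain and 0.68 ± 0.04 in Norad+/+ brain, against -2.21 ± 0.16 in Norad-/- spleen and -1.89 ± 0.18 in Norad+/+ spleen (SD, n = 3 each). Between genotypes of a tissue the gap of the 8 genes overlapped, and that of the other lists overlapped in brain. In spleen the latter ran from -2.37 to -2.04 in Norad-/- and from -2.01 to -1.69 in Norad+/+ libraries, without overlap. Of the other barrier genes, Slc38a5 averaged 8.03 FPKM in Norad-/- and 29.2 FPKM in Norad+/+ spleen, and Slc16a1 13.9 and 29.8 FPKM. Lef1 went the other way, at 41.1 and 27.1 FPKM. Of the 12 tested there, 5 lay above 0 and 7 below. The part of single genes, or of red cell precursors, in this separation was not tested.

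**Figure D4:**
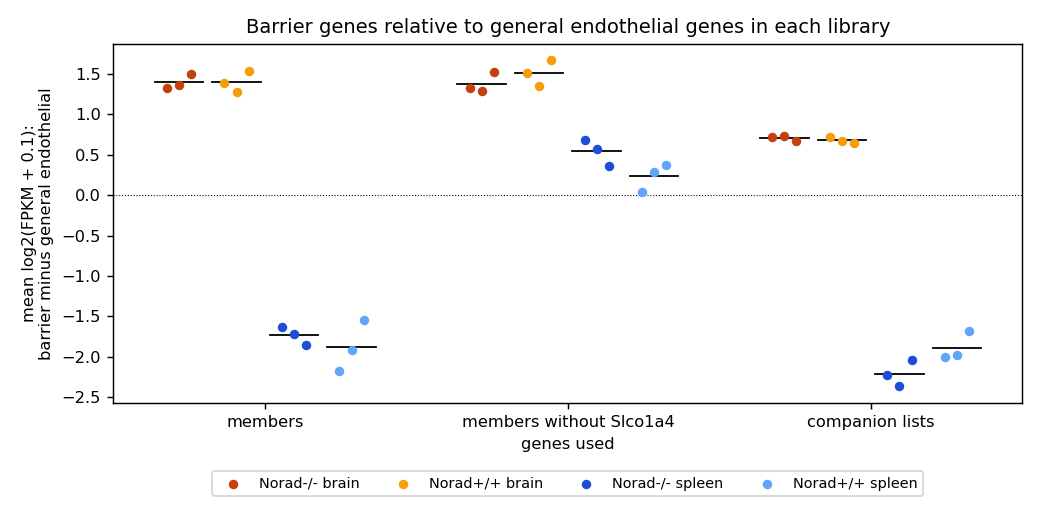
Mean log2(FPKM + 0.1) of barrier genes minus that of general endothelial genes in each library on the vertical axis, for the 8 genes described, for the same without Slco1a4, and for lists of 20 other genes of each kind. Points are libraries of Norad-/- brain, Norad+/+ brain, Norad-/- spleen and Norad+/+ spleen (n = 3 each) and lines mark group means; brain lies above spleen in all 3 versions, and without Slco1a4 the spleen values lie above 0.

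Set against Cdh5 of the same library, the other genes showed which differences remained once the level of this endothelial marker was taken into account. The log2 ratio of Kdr to Cdh5 overlapped between the tissues in each genotype, at -1.16 ± 0.08 in Norad-/- brain and -1.16 ± 0.38 in Norad+/+ brain, against -1.28 ± 0.12 in Norad-/- spleen and -0.99 ± 0.19 in Norad+/+ spleen (SD, n = 3 each). Within spleen the genotypes did not overlap for Kdr. Flt1, Tek, Abcb1a, Slco1a4 and Vtn had a higher ratio in every brain library than in any spleen library. That of Cldn5 was above 0 everywhere and higher in brain, at 2.24 ± 0.19 in Norad-/- brain and 2.50 ± 0.39 in Norad+/+ brain, against 1.37 ± 0.30 in Norad-/- spleen and 1.15 ± 0.19 in Norad+/+ spleen (SD, n = 3 each). On this scale no brain library overlapped a spleen library for Cldn5. Pecam1 kept a lower ratio in brain, at 0.24 ± 0.10 in Norad-/- brain and 0.18 ± 0.31 in Norad+/+ brain, against 1.88 ± 0.12 in Norad-/- spleen and 1.82 ± 0.14 in Norad+/+ spleen (SD, n = 3 each). For Pdgfrb the ratio was higher in brain in Norad-/- mice without overlap, at -0.20 ± 0.02 in brain and -0.62 ± 0.20 in spleen, while its FPKM were lower there, and in Norad+/+ mice the ratios overlapped, at -0.50 ± 0.13 in brain and -0.43 ± 0.11 in spleen (SD, n = 3 each). These ratios are descriptions and were not tested, since each contains Cdh5.

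Lists of further vessel genes gave the setting, by counts and medians only. Of all genes tested, 39.3% were called higher in brain and 43.8% lower in Norad-/- mice, and 37.9% higher and 45.4% lower in Norad+/+ mice. Of 19 other general endothelial genes tested, 2 were called higher in brain and 16 lower in Norad-/- mice, and 2 higher and 14 lower in Norad+/+ mice, with median log2 fold changes of -0.91 and -1.03. Their most abundant members included S1pr1, a receptor for sphingosine 1-phosphate that lymphocytes also use, which had 79.7 ± 3.36 FPKM in Norad-/- brain, against 143 ± 6.38 FPKM in Norad-/- spleen (SD, n = 3 each, log2 fold change -0.85, adjusted p = 0.000148 with limma). Eng, a co-receptor for TGF-beta ligands, had 6.12 ± 0.09 FPKM in Norad-/- brain, against 26.4 ± 2.11 FPKM in Norad-/- spleen (SD, n = 3 each). Cd34, a sialomucin of endothelial and progenitor cells, went the other way, with 19.3 ± 1.22 FPKM in Norad-/- brain, against 8.02 ± 1.26 FPKM in Norad-/- spleen (SD, n = 3 each, log2 fold change 1.27, adjusted p = 1.23e-06). Fli1 and Icam2, which blood cells express as well, were lower in brain, at a log2 fold change of -4.65 and -4.50 in Norad-/- mice.

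Of 20 other barrier genes, 12 were called higher in brain and 3 lower in Norad-/- mice, where 39.3% and 43.8% of all genes were. In Norad+/+ mice 12 were called higher and 5 lower, where 37.9% and 45.4% of all genes were. Of these 20, 8 passed the filter on low values through brain alone, Slco1c1 among them, which set their direction. Slco1c1, a thyroid hormone transporter, had 16.1 ± 1.11 FPKM in Norad-/- brain, against 0.0187 ± 0.0250 FPKM in Norad-/- spleen (SD, n = 3 each), the pattern of Slco1a4. Slc2a1, the glucose transporter of the barrier and of red cells, was present in both organs, with 35.9 ± 6.57 FPKM in Norad-/- brain, against 19.4 ± 1.99 FPKM in Norad-/- spleen (SD, n = 3 each, log2 fold change 0.87, adjusted p = 0.000351 with limma). Slc7a5, a carrier of large neutral amino acids, was higher in brain in Norad-/- mice (0.84, adjusted p = 0.0124) and not called in Norad+/+ mice (-0.31, adjusted p = 0.291), a difference between genotypes that missed the threshold (adjusted p = 0.246 for the interaction). Among those lower in brain were Lef1, a transcription factor of Wnt signalling that T lymphocytes also use (-3.36 in Norad-/- and -2.78 in Norad+/+ mice), and Slc16a1, a lactate and ketone carrier (-0.78 and -1.85).

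Of 15 other pericyte and mural genes tested, 6 were called higher in brain and 7 lower in each genotype. These counts were near the shares of all genes, 39.3% and 43.8% in Norad-/- and 37.9% and 45.4% in Norad+/+ mice. Of the 15, 4 had passed the filter through brain alone and 1, Des, through spleen alone. Rgs5, a regulator of G protein signalling in pericytes, had 28.8 ± 10.9 FPKM in Norad-/- brain, against 2.28 ± 0.35 FPKM in Norad-/- spleen (SD, n = 3 each, log2 fold change 3.55, adjusted p = 7.67e-08 with limma). The contractile genes Acta2, Tagln and Des were lower in brain, at -3.86, -4.33 and -4.73 in Norad-/- mice and -3.57, -4.11 and -4.82 in Norad+/+ mice. Of 9 genes of spleen sinus and marginal endothelium, Stab2, Madcam1, Flt4, Nkx2-3 and Cd36 passed the filter through spleen alone, so no count is given for that list, and Lyve1, below 1 FPKM in both tissues, had 0.395 ± 0.104 FPKM in Norad-/- brain, against 0.316 ± 0.095 FPKM in Norad-/- spleen, and 0.637 ± 0.029 FPKM in Norad+/+ brain, against 0.258 ± 0.052 FPKM in Norad+/+ spleen (SD, n = 3 each). Plvap, a protein of the diaphragms of leaky endothelium, had 5.36 ± 1.61 FPKM in Norad-/- brain, against 69.4 ± 1.29 FPKM in Norad-/- spleen (SD, n = 3 each). Cd36, a scavenger receptor, and Mrc1, the mannose receptor of macrophages and some sinus endothelium, were lower in brain, at -6.13 and -3.39 in Norad-/- mice on the log2 scale.

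The ligands of the receptors were measured as well. Of 12 ligands and co-receptors, 7 were called higher in brain and 3 lower in Norad-/- mice, where 39.3% and 43.8% of all genes were. In Norad+/+ mice 6 were called higher and 3 lower, where 37.9% and 45.4% of all genes were. Of the 12, 3 passed the filter through brain alone and 1 through spleen alone. Vegfb, which binds Flt1, had 35.2 ± 3.21 FPKM in Norad-/- brain, against 10.5 ± 1.0 FPKM in Norad-/- spleen (SD, n = 3 each, log2 fold change 1.73, adjusted p = 1.59e-06 with limma), and was higher by 1.46 in Norad+/+ mice. Vegfa, which binds both Flt1 and Kdr, was not called in Norad-/- mice (0.56, adjusted p = 0.086) or Norad+/+ mice (0.28, adjusted p = 0.375). Of the co-receptors, Nrp2 was higher in brain (0.56 in Norad-/- and 0.77 in Norad+/+ mice) and Nrp1 lower (-0.50 and -0.29). Pdgfb, the ligand of Pdgfrb, stood at 6.04 ± 0.88 FPKM in Norad-/- brain and 4.68 ± 0.26 FPKM in Norad+/+ brain, against 4.99 ± 0.64 FPKM in Norad-/- spleen and 5.26 ± 0.46 FPKM in Norad+/+ spleen (SD, n = 3 each).

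To ask whether loss of Norad changed the vessel genes, Norad-/- was compared with Norad+/+ within each tissue. In brain 0 of the 10 genes were called higher or lower with limma (13051 genes tested), where 0% of all genes were called higher and 0.0153% lower. An unadjusted p under 0.05 was found for 1 of the 10, against 6.62% of all genes. The groups did not overlap at 1 gene higher in Norad-/- brain (10.6% of all genes) and at 1 lower (6.56% of all genes). Of the 10 genes 3 lay above 0 and 7 below, with a median log2 fold change of -0.11, against 0.02 for all genes. All 5 general endothelial genes lay below 0, by 0.03 to 0.29, though Tek turned to 0.0253 without Norad+/+ brain replicate 2 and to 0.00767 without the same number of Norad-/- brain, and Pecam1 to 0.00764 without Norad+/+ brain replicate 3. With 3 libraries in a group, small effects of genotype could have been missed.

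Flt1, whose shorter transcript holds 1 of the PREs printed above, was the gene with the unadjusted p under 0.05. It had 10.7, 10.5 and 9.64 FPKM in Norad-/- brain, against 13.0, 12.7 and 12.1 FPKM in Norad+/+ brain, so that all Norad-/- libraries were lower. The log2 fold change was -0.29 (standard error 0.09, adjusted p = 0.69 with limma) and ran from -0.32 to -0.25 with 1 library left out. Cldn5 had 31.0, 24.0 and 31.2 FPKM in Norad-/- brain, against 43.0, 29.8 and 43.2 FPKM in Norad+/+ brain. Its groups overlapped through Norad+/+ replicate 2, and it stood at -0.42 on the log2 scale (standard error 0.19, adjusted p = 0.718). In the same libraries the summed level of 4 choroid plexus genes (Ttr, Kl, Folr1 and Clic6) was 379, 359 and 378 FPKM in Norad-/- brain, against 389, 608 and 646 FPKM in Norad+/+ brain, with 0 of them at 0, and that of 4 pituitary genes was 1328 FPKM in Norad-/- brain replicate 3, against at most 1.03 FPKM in any other brain library. Their part in the vessel genes was not tested.

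Vtn had 36.0, 35.8 and 39.3 FPKM in Norad-/- brain, against 32.4, 33.2 and 21.7 FPKM in Norad+/+ brain, and was the gene whose Norad-/- libraries were all higher. On the log2 scale it was 0.37 higher (standard error 0.18, adjusted p = 0.718 with limma), and 0.17 without Norad+/+ brain replicate 3, the library that stood apart. That library was also the lowest for Pdgfrb, at 3.89 FPKM, and the highest of all brain libraries for Pecam1 and Abcb1a, at 8.69 and 8.37 FPKM. Pdgfrb stood at 0.15 on the log2 scale (adjusted p = 0.782), and at 0.02 without it. Slco1a4 (0.10) and Abcb1a (-0.13), which holds 2 PREs, differed little, with adjusted p = 0.782 and adjusted p = 0.762.

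**Figure D5:**
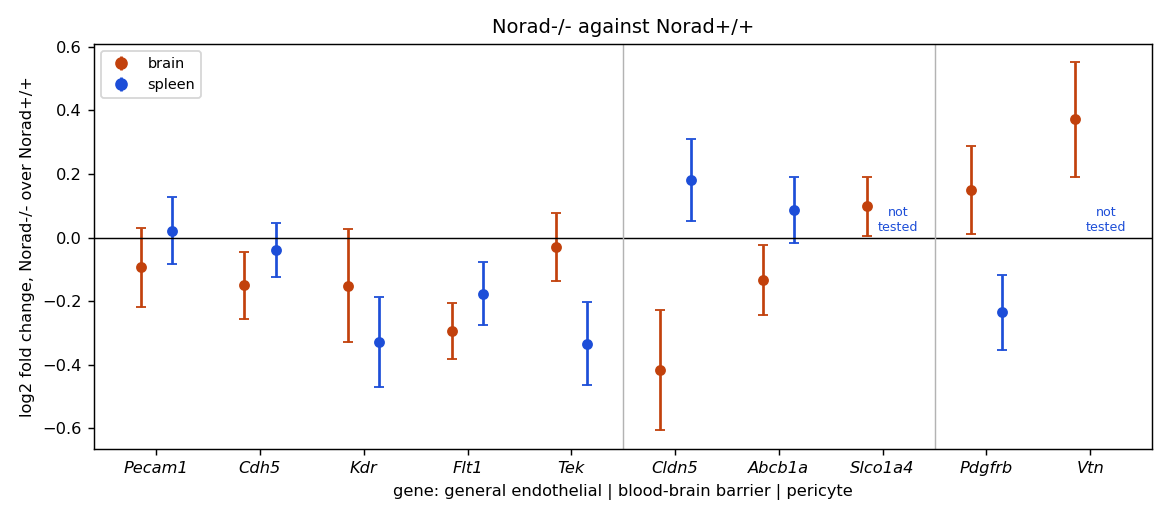
Log2 fold change of Norad-/- over Norad+/+ on the vertical axis for each gene, in brain and in spleen (points, with the standard error from limma as bars; 3 libraries per group). No gene passed the adjusted threshold in either tissue, and Slco1a4 and Vtn were below the filter on low values in spleen.

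In spleen 8 of the 10 genes had a mean of at least 1 FPKM and were tested, and Slco1a4 and Vtn were not. Of the 8, 0 were called with limma (12397 genes tested), where 0.00807% of all genes were called higher and 0.0242% lower. An unadjusted p under 0.05 was found for 1 of the 8, against 21% of all genes. On the FPKM scale the groups did not overlap at 0 genes higher in Norad-/- spleen (11.6% of all genes) and at 3 lower (14.9% of all genes). These 3 were Kdr, Flt1 and Tek, the receptors among the general endothelial genes. The median log2 fold change of the 8 was -0.11, against -0.02 for all genes, and rescaling to TPM moved the median of all genes to 0.10. In the fit without the filter, Slco1a4 stood at -0.34 and Vtn at -1.90 on the log2 scale (adjusted p = 0.596 and adjusted p = 0.509), and the highest library of both was Norad+/+ spleen replicate 3.

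Kdr, with 0 PREs, had 5.39, 6.53 and 5.98 FPKM in Norad-/- spleen, against 8.99, 7.03 and 6.66 FPKM in Norad+/+ spleen. This was -0.33 on the log2 scale (standard error 0.14, adjusted p = 0.251 with limma). Leaving out Norad+/+ spleen replicate 1, the highest library, gave -0.20. Tek, which carries 2 PREs in its 3′ UTR and had the unadjusted p under 0.05, stood at 2.08, 2.31 and 2.39 FPKM in Norad-/- spleen, against 2.83, 2.56 and 3.25 FPKM in Norad+/+ spleen, or -0.33 on the log2 scale (standard error 0.13, adjusted p = 0.226). Flt1 had 2.98, 3.08 and 3.36 FPKM in Norad-/- spleen, against 3.74, 3.54 and 3.39 FPKM in Norad+/+ spleen, or -0.18 on the log2 scale (standard error 0.10, adjusted p = 0.353). On the FPKM scale all 3 receptors were thus lower in every Norad-/- library, by amounts that missed the threshold. The FPKM of a library summed to between 296166 and 315554 in Norad-/- spleen, and between 301390 and 360333 in Norad+/+ spleen. After rescaling to TPM the values were -0.21 for Kdr, -0.22 for Tek and -0.06 for Flt1, and the genotypes overlapped for all 3. As a log2 ratio to Cdh5 of the same library, which was not tested, all 3 were lower in every Norad-/- spleen library. Kdr ran from -1.38 to -1.15 in Norad-/- spleen, against -1.14 to -0.77 in Norad+/+ spleen. Flt1 ran from -2.21 to -2.14, against -2.09 to -2.01, and Tek from -2.67 to -2.61, against -2.475 to -2.15.

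The other genes of the spleen overlapped between genotypes. Pecam1 (0.02) and Cdh5 (-0.04) lay near 0, and their signs turned with the setting, Cdh5 to 0.0805 after rescaling to TPM. Cldn5 stood at 0.18 on the log2 scale (adjusted p = 0.446 with limma), Abcb1a, with 2 PREs, at 0.09 (adjusted p = 0.665) and Pdgfrb at -0.24 (adjusted p = 0.299). Markers of blood cells also varied between these libraries. The summed level of 7 genes of red cell precursors was 62.4, 51.9 and 636 FPKM in Norad-/- spleen, against 497, 1219 and 1602 FPKM in Norad+/+ spleen, and that of 5 platelet genes was 80.6, 63.4 and 202 FPKM, against 152, 294 and 227 FPKM. In each list 0 genes were at 0, and the part of these cells in the values of the vessel genes was not tested.

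Whether the effect of genotype differed between the tissues was tested as an interaction over 14967 genes. Of the 10 genes 0 were called with limma, as were 0% of all genes in either direction. The share of all genes with an unadjusted p under 0.05 was not counted for this fit, and 1 of the 10 genes had one. This was Cldn5, which was lower in Norad-/- brain and higher in Norad-/- spleen, with a difference between the 2 log2 fold changes of -0.60 (standard error 0.24, adjusted p = 0.294). With 1 library left out the difference ran from -0.78 to -0.47. Tek (0.30, adjusted p = 0.435) and Pdgfrb (0.38, adjusted p = 0.381) had positive differences. The value of Vtn (2.27, adjusted p = 0.486) rests on spleen levels under the filter, on the pseudocount and on Norad+/+ spleen replicate 3, without which it was 0.69.

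Of the genes in the companion lists, 0 of 67 were called between genotypes in brain and 0 of 59 in spleen (limma), with an unadjusted p under 0.05 for 3 and 18 of them, where 6.62% of all genes in brain and 21% in spleen had one. In spleen the median log2 fold change was -0.09 for the other general endothelial genes, -0.04 for the other barrier genes, 0.16 for the other mural genes, -0.17 for the ligands and co-receptors and -0.20 for the sinus genes, and 0.03, 0.07, 0.28, -0.07 and -0.08 for these lists in turn after rescaling to TPM. Among the 22 companions chosen by their level and tested in brain, 2 were higher without overlap in Norad-/- libraries (Cd34 and Fli1) and 2 lower (Nrp1 and Slc38a5), against 10.6% and 6.56% of all genes. Of the 23 companions chosen by their level and tested in spleen, 5 were higher without overlap in Norad-/- libraries (Cd34, Icam2, Lef1, Rgs5 and S1pr1) and 3 lower (Cd36, Mrc1 and Slc7a5), against 11.6% and 14.9% of all genes. Mrc1 had 12.2, 11.98 and 17.1 FPKM in Norad-/- spleen, against 21.5, 24.4 and 25.9 FPKM in Norad+/+ spleen (log2 fold change -0.81, adjusted p = 0.141). Rgs5 had 2.15, 2.68 and 2.01 FPKM in Norad-/- spleen, against 1.65, 1.46 and 1.18 FPKM in Norad+/+ spleen (0.64, adjusted p = 0.181). Slc38a5, a glutamine carrier listed with the barrier genes, had 0.810, 0.482 and 22.8 FPKM in Norad-/- spleen, against 11.8, 28.5 and 47.2 FPKM in Norad+/+ spleen, with overlap (-3.46, adjusted p = 0.237). In both genotypes its highest library was also the one with the highest sum of red cell precursor genes, and the link was not tested.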

How the data were processed

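RNA from brain and spleen was sequenced as 75-base single reads of stranded, poly(A)-selected libraries. The authors filtered reads by quality, aligned them to GRCm38 and kept unique alignments. The submitters' processing notes name TopHat2 2.0.12, featureCounts 1.4.6, edgeR 3.8.6 and StringTie 1.2.2. The deposited values are FPKM per gene, made by the authors with StringTie, in 1 table per tissue, and 0 value columns belonged to no sample. The annotation and strand setting behind them are not given in the sources used here. The smallest FPKM steps gave 28.3 to 36.6 M reads per library, an estimate, since at that depth 34.0% to 42.3% of low values were whole reads within 2%.

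FPKM were put on a log2 scale after adding 0.1, so fold changes of low genes read small. A gene entered a fit if its FPKM averaged 1 or more in the tissue compared (in either tissue for the tissue and interaction fits). The test was limma 3.58.1 (R 4.3.3) with a trend of variance on level. Its p-values were adjusted over all genes tested by the Benjamini-Hochberg method and called at 0.05. The tissue and interaction fits used all 12 libraries. Python 3.11.15, pandas 2.3.3, numpy 2.4.6 and matplotlib 3.10.9 made the tables and figures. In simulated libraries, where 200 genes were shifted by a log2 value of 1, the fit found 60.5% of them in brain and 57% in spleen. The simulated noise was independent between genes, unlike that of real libraries. The shift was also larger than any genotype difference of the vessel genes tested, so these shares do not give the power for those.

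The genes and lists were chosen with earlier results of these data known. All 10 genes are named. From each companion list the 3 genes with the highest mean FPKM in each tissue could be named, with paralogs and the 5 genes most like Cdh5, Cldn5 and Pdgfrb. Pdgfb was named after its values were seen, as the ligand of Pdgfrb. Alternatives were a pseudocount of 1 FPKM, no filter, TPM, quantile normalization, no variance trend, a replicate block and leaving out each library. The labels do not say whether replicates are separate animals, but the study's methods count 3 mice per genotype. Within a tissue p-values thus measure the spread between mice as the methods count them, and whether a mouse gave both tissues is not stated.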

Additional observations from a re-analysis of the deposited data

How the results depend on the processing

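Of the 10 genes, 8 to 9 passed in the tissue comparison in Norad+/+ mice and 9 to 10 in Norad-/- mice with 1 library left out, and 0 passed between genotypes in brain or spleen or in the interaction under any alternative run. The log2 fold change of Cdh5 between genotypes in spleen was -0.04, and turned to 0.0805 on the TPM scale and to 0.0349 after quantile normalization. With 1 library left out it ran from -0.10 to 0.0175, that of Pecam1 from -0.0325 to 0.12 in spleen and from -0.20 to 0.00764 in brain, and that of Tek in brain from -0.0943 to 0.0253. The gap between barrier and general endothelial genes was 1.26 in Norad-/- brain, -0.76 in Norad-/- spleen and -0.96 in Norad+/+ spleen at a pseudocount of 1 FPKM. On the TPM scale it was -2.25 in Norad-/- and -2.28 in Norad+/+ spleen. With the companion lists it was 0.71 in Norad-/- brain, 0.68 in Norad+/+ brain and -2.21 in Norad-/- spleen. Without Slco1a4 it turned to 0.54 in Norad-/- and 0.24 in Norad+/+ spleen. With 1 library left out it ran from 1.35 to 1.43 in Norad-/- brain, 1.34 to 1.47 in Norad+/+ brain, -1.79 to -1.67 in Norad-/- spleen and -2.05 to -1.73 in Norad+/+ spleen. Tek in Norad+/+ mice also missed the tissue threshold after quantile normalization (adjusted p = 0.0601, limma), and Cldn5 in Norad-/- mice without the filter (adjusted p = 0.0569), without a variance trend (adjusted p = 0.0544) and with both libraries that held other organs' RNA left out, an alternative added after the data were seen (adjusted p = 0.06). The labels tie no replicate number to a mouse, and the correlations between libraries did not decide whether any were paired. Same-numbered libraries of the 2 genotypes correlated at 0.06, 0.07 and 0.11 in brain, above all differently numbered ones (-0.09 to 0.04). In spleen they correlated at 0.34, -0.15 and 0.29, within the range of differently numbered ones (-0.48 to 0.36). Those of the 2 tissues correlated at -0.02, 0.05 and 0.03 in Norad-/- mice, where differently numbered ones ran from -0.06 to 0.03. In Norad+/+ mice they correlated at 0.03, 0.04 and 0.06, where differently numbered ones ran from -0.07 to 0.05. With a replicate block 0 genes passed between genotypes, and 8 passed in the tissue comparison in Norad+/+ mice and 9 in Norad-/- mice, where Tek (adjusted p = 0.0787) and Cldn5 (adjusted p = 0.076) were lost. Low spleen values of Slco1a4 and Vtn rest on few reads, and the precision of the rest is limited by 3 libraries per group.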

Other observations

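Close relatives of the vessel genes had tissue patterns of their own. Cldn12, a claudin named with Cldn5 at brain vessels, had 17.9 ± 1.26 FPKM in Norad-/- brain and 16.7 ± 0.80 FPKM in Norad+/+ brain, against 1.96 ± 0.29 FPKM in Norad-/- spleen and 1.87 ± 0.19 FPKM in Norad+/+ spleen (SD, n = 3 each), a log2 fold change of brain over spleen of 3.13 and 3.10 (limma, adjusted p = 6.9e-10 and adjusted p = 8.19e-10). Cldn3 did not exceed 0.311 FPKM in any library. Tie1, the partner of Tek, was lower in brain where Tek was higher, at -1.40 in Norad-/- and -1.52 in Norad+/+ mice on the log2 scale (adjusted p = 3.3e-07 and adjusted p = 1.63e-07). Flt4, the VEGF-C receptor of lymphatic and sinus endothelium, was lower as well, at -1.94 and -2.06. Of the relatives of Slco1a4, Slco1a5 and Slco1a6 averaged at most 0.0743 FPKM in any group, and Slco1a1, a liver transporter, was listed at 0 in all libraries but Norad+/+ spleen replicate 3, at 0.191 FPKM. Abcb4, a phospholipid pump beside Abcb1a and Abcb1b, had 3.40 ± 3.45 FPKM in Norad-/- spleen, against 15.5 ± 7.37 FPKM in Norad+/+ spleen (SD, n = 3 each, log2 fold change -2.48, adjusted p = 0.182).

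The genes whose levels followed Cdh5 most closely over the 6 brain libraries were Kcne2, Cyyr1, Zfp451, Ephb1 and Vps26b (Pearson r of 0.98 to 0.99 among 13051 genes). For Cldn5 they were Chadl, Adam8, Smim4, Fam203a and Paip2 (0.97 to 0.99), and for Pdgfrb they included Cdk18, Slc22a8 and Gpr173 (0.986 to 0.998). Over the 6 spleen libraries Cdh5 was followed by Hp1bp3, Mir877, Med13l, Sirt3 and Etv6 (0.92 to 0.98), Cldn5 by Hmces, Zfp688, Loxl1, N4bp3 and Arhgap22, and Pdgfrb by Dus4l, Mpdz, Ndufaf7, Nnt and Card14. With 6 libraries and over 12397 genes, correlations of this size are descriptions of the ranking, and libraries share depth and genotype.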
